A study of Mus musculus with 5 samples.

Results

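The 10 genes described here are the Notch receptors *Notch1*, *Notch2*, *Notch3* and *Notch4*, the ligands *Jag1*, *Jag2* and *Dll1*, and the target genes *Hes1*, *Hey1* and *Heyl*. They were chosen by name, not by level, and are 10 of the 27998 genes in the deposited count matrices of mammary gland single cells. A set of 44 other genes of the same pathway was measured beside them.

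Notch receptors are membrane proteins that are activated by ligands of the Delta and Jagged families on a neighbouring cell. Ligand binding exposes the receptor to cleavage by ADAM metalloproteases and γ-secretase, and the released intracellular part joins the DNA-binding protein RBPJ and a Mastermind-like coactivator to switch on genes of the Hes and Hey families. In the mammary gland the pathway is known for its part in luminal cell fate, and in blood vessels for the patterning of arteries and the attachment of mural cells.

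Cells came from the number 4 mammary glands, lymph node removed, of female BALB/cj mice that had been ovariectomized and were treated 20 weeks later for 1 week, to an age of 30 weeks. The groups were OVX, given vehicle, 17β-estradiol in a dose of 1 µg per animal (OVX_E2), 17β-estradiol with polybrominated diphenyl ethers in the food (OVX_E2_PBDE), 17β-estradiol with progesterone at 0.1 mg per animal (OVX_E2_P4), and both hormones with the flame retardants (OVX_E2_P4_PBDE). Hormones were injected daily with DMSO as the vehicle. Each kg of PBDE food carried 7.1 mg of BDE-47, 0.4 mg of BDE-100 and 0.9 mg of BDE-153, while all other mice had matched food with DMSO. No group kept its ovaries, and the cells were freed with collagenase and DNAse, cleared of dead cells with beads and not sorted. Each group was 1 library made with the 10x Genomics 3′ kit (v2), in which a barcode marks a droplet with a cell and a unique molecular identifier (UMI) marks a captured transcript. How many mice were pooled into a library was not stated in the sources used here.

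The 5 libraries held between 19982067 and 42012988 UMIs, and 14317 of 14344 barcodes passed the filters. Pairs of libraries shared between 3 and 15 barcode sequences. Clusters were named from marker genes that include none of the 10 genes, which gave 2537 barcodes of hormone-sensing luminal (L-Hor-like) cells, 1049 of alveolar luminal (L-Alv-like) cells, 406 of basal-like cells and 7256 of fibroblast-like cells. A further 235 barcodes came from clusters, drawn in each library alone, that were led by endothelial genes. Pericyte markers were also high in them, so they are called vascular here and not endothelial. Their summed endothelial markers were between 2504 and 3173 CPM in the 5 libraries. Their pericyte markers were between 1241 and 1752 CPM and their fibroblast markers between 880 and 1957 CPM. None of the defining markers of these 5 types was at 0 in its own type in any library. In OVX no separate L-Alv-like cluster was found, and 1982 luminal barcodes that carried both luminal programs were set aside as mixed luminal. In the numbering of the library files the PBDE libraries are neighbours and the other 3 stand elsewhere, so a batch and the PBDE food cannot be told apart.

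Levels are given as CPM, the UMIs of a gene summed over the barcodes of a cell type per 1000000 UMIs of those barcodes, in the order OVX, OVX_E2, OVX_E2_PBDE, OVX_E2_P4 and OVX_E2_P4_PBDE. Levels of different genes were not compared with each other, because 3′ UMIs are not values per length. A library is a mixture of cells, and within a cell type fewer cells that express a gene and less RNA per cell cannot be told apart from a summed level.

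*Notch4* and *Dll1* were the receptor and the ligand most confined to a single cell type, and their promoters are shown here for that reason. *Notch4* (ENSMUSG00000015468, chr17:34564268-34588503, plus strand, mm10) encodes the receptor known from the endothelium. *Dll1* (ENSMUSG00000014773, chr17:15367354-15376872, minus strand) encodes the ligand Delta-like 1. RefSeq promoters of GRCm38.p6, from 250 bases before to 50 bases after a start, matched 7 of the 10 genes and gave 8 sequences of 300 bases. *Hes1*, *Hey1* and *Heyl* were not matched. The *Notch4* sequence lies at chr17:34564045-34564344 on the plus strand, and that of the upstream start of *Dll1* at chr17:15376883-15377182 on the minus strand. Both are written 5′ to 3′ with the letters TGANTCA in capitals, a loose form of the AP-1 motif that allows any middle base. The marked letters are TGACTCA in *Notch4* and TGATTCA in *Dll1*.
Notch4 promoter: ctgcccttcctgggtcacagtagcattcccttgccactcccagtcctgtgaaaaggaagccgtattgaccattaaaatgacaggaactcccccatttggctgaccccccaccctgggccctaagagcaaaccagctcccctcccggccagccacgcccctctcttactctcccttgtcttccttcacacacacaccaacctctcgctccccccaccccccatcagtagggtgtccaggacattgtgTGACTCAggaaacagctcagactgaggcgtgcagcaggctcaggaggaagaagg
Dll1 upstream promoter: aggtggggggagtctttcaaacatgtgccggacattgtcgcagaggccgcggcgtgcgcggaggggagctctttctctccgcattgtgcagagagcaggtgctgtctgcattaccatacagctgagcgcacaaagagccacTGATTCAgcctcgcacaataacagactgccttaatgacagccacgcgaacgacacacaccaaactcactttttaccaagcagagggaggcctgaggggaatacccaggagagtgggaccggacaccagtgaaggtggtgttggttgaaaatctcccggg
The TGANTCA letters began at base 247 in *Notch4* and at base 142 in the upstream *Dll1* promoter. On either strand they were found in 7.81% of all 32851 promoters of this length, and in the members' other 6 promoters they were absent. Among those 6 is the promoter of the other *Dll1* start (chr17:15375774-15376073), which is not printed. The printed *Dll1* stretch lies outside the gene span given above. The core letters of the RBPJ motif, TGGGAA, occurred in 0 of the 8 sequences and in 25.6% of all promoters. The estrogen response element letters GGTCANNNTGACC occurred in none of the 8 and in 0.07% of all promoters. A match of letters describes the sequence and shows no binding.

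The receptors differed in which cells held their UMIs, and 3 of the 4 were highest in vascular barcodes. *Notch1*, *Notch3* and *Notch4* were higher in vascular than in fibroblast-like barcodes in every library, whereas *Notch2* was highest in fibroblast-like barcodes.

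*Notch1* (ENSMUSG00000026923, chr2:26457903-26516663, minus strand) encodes a receptor known for luminal and arterial fate. In vascular barcodes it stood at 105, 101, 148, 88.0 and 80.0 CPM. L-Alv-like barcodes had 44.9, 48.9, 40.2 and 42.6 CPM in the 4 libraries with that type, and L-Hor-like barcodes had 24.6, 24.3, 19.1, 25.6 and 19.7 CPM. The 3 ranges did not overlap. In basal-like barcodes *Notch1* ran from 2.50 CPM in OVX to 37.9 CPM in OVX_E2_P4_PBDE, a range that overlapped both that of L-Hor-like barcodes and that of fibroblast-like barcodes, which ran from 7.28 to 13.2 CPM. The fibroblast-like and L-Hor-like ranges did not overlap.

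*Notch2* (ENSMUSG00000027878, chr3:98013527-98150361, plus strand) encodes a receptor found in many mesenchymal and hematopoietic cells. In fibroblast-like barcodes its level was 142 CPM in OVX (1952 UMIs), 81.3 CPM in OVX_E2 (540 UMIs), 43.4 CPM in OVX_E2_PBDE (617 UMIs), 88.9 CPM in OVX_E2_P4 (499 UMIs) and 76.7 CPM in OVX_E2_P4_PBDE (308 UMIs). The pooled level of 88.6 CPM there compared with 27.3 CPM in L-Alv-like, 18.7 CPM in basal-like, 16.3 CPM in L-Hor-like and 12.1 CPM in vascular barcodes, and the ranges of neighbours among the last 4 overlapped. Hematopoietic-like barcodes, 531 in all, held 105 CPM in OVX and between 38.2 and 50.7 CPM in the other 4 libraries.

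*Notch3* (ENSMUSG00000038146, chr17:32120820-32166852, minus strand) encodes the receptor known from pericytes and smooth muscle of vessels. Vascular barcodes had 261, 215, 240, 166 and 154 CPM. L-Hor-like barcodes had 36.2, 32.3, 26.1, 28.7 and 30.1 CPM, which overlapped the L-Alv-like range of 25.6 to 33.3 CPM. Basal-like barcodes had 0 UMIs in OVX, where 3 UMIs would have given 7.51 CPM, and at most 14.7 CPM elsewhere. Fibroblast-like barcodes had between 3.45 and 6.32 CPM. An antisense gene, *Gm17276*, overlaps *Notch3*, and whether the counting used strand was not stated in the sources used here.

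*Notch4* stood at 58.4, 49.3, 60.3, 58.7 and 47.4 CPM in vascular barcodes. Outside them no library exceeded 4.21 CPM in basal-like, 2.19 CPM in L-Hor-like, 2.47 CPM in L-Alv-like or 0.451 CPM in fibroblast-like barcodes. After each barcode was thinned to 3000 UMIs, 14.9% of vascular and 0.110% of fibroblast-like barcodes had a *Notch4* UMI (32.3% and 0.193% unthinned, at median depths of 7275 and 5860 UMIs). The thinned *Notch4* shares were 0.434% in L-Hor-like, 0.381% in L-Alv-like, 1.13% in hematopoietic-like and 0% in basal-like barcodes. What share free RNA could give was not tested. For *Notch3* the thinned shares were 46.0% of vascular, 8.44% of L-Hor-like and 1.75% of fibroblast-like barcodes (68.1%, 22.9% and 2.89% unthinned).

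The ligands differed in their cell types. *Dll1* was nearly confined to basal-like barcodes among the epithelial types, *Jag2* was sparse and highest there, and *Jag1* was shared by basal-like, vascular, fibroblast-like and L-Hor-like barcodes but low in L-Alv-like ones.

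*Dll1* in basal-like barcodes was 220 CPM in OVX (88 UMIs), 92.6 CPM in OVX_E2 (89 UMIs), 103 CPM in OVX_E2_PBDE (80 UMIs), 86.3 CPM in OVX_E2_P4 (130 UMIs) and 59.0 CPM in OVX_E2_P4_PBDE (56 UMIs). The 2537 L-Hor-like barcodes held 7 *Dll1* UMIs in all, with 0 in the OVX, OVX_E2 and OVX_E2_PBDE libraries. Thinned to 3000 UMIs, 98 of 406 basal-like barcodes (24.1%) had a *Dll1* UMI, against 0.0788% of L-Hor-like barcodes (55.7% and 0.276% unthinned, at median depths of 8712 and 8704 UMIs). The vascular barcodes came next, at 7.79, 6.44, 17.4, 29.4 and 5.92 CPM. The antisense gene *A930024N18Rik* overlaps *Dll1*, with the same limit on strand.

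*Jag1* (ENSMUSG00000027276, chr2:137081456-137116644, minus strand) encodes the ligand Jagged 1. Its level in basal-like barcodes was 108, 56.2, 63.3, 52.4 and 37.9 CPM, with OVX highest. L-Hor-like barcodes had 22.0, 23.1, 13.9, 23.4 and 25.1 CPM, and L-Alv-like barcodes between 2.34 and 3.95 CPM, below the other 4 types in every library. Vascular barcodes had between 24.5 and 70.1 CPM and fibroblast-like barcodes between 24.6 and 38.6 CPM, and these ranges overlapped that of basal-like barcodes.

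*Jag2* (ENSMUSG00000002799, chr12:112907819-112929776, minus strand) encodes Jagged 2 and gave 59 UMIs in basal-like barcodes, at 10.0, 15.6, 15.5, 15.9 and 4.21 CPM. Vascular barcodes ranged from 0 to 10.7 CPM, and no library exceeded 0.602 CPM in the other 3 types. Thinned shares were 3.94% of basal-like and 0.0551% of fibroblast-like barcodes (12.1% and 0.152% unthinned).

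Among the targets, *Hes1* and *Hey1* had opposite luminal patterns. *Hes1* was high in L-Hor-like and low in L-Alv-like barcodes, and *Hey1* was the reverse, with both high in vascular barcodes.

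*Hes1* (ENSMUSG00000022528, chr16:30064384-30067796, plus strand) encodes a transcriptional repressor. It stood at 397, 301, 379, 331 and 335 CPM in L-Hor-like barcodes and at 56.7, 60.0, 59.5 and 64.4 CPM in L-Alv-like barcodes. Basal-like barcodes lay between, from 84.2 to 145 CPM. Fibroblast-like barcodes had 301, 256, 309, 197 and 280.2 CPM, and vascular barcodes 701, 528, 509, 240 and 699 CPM, so the vascular value of OVX_E2_P4 fell within the fibroblast-like range. Thinned shares were 49.1% of L-Hor-like and 12.6% of L-Alv-like barcodes (73.0% and 31.5% unthinned, at median depths of 8704 and 9231 UMIs).

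*Hey1* (ENSMUSG00000040289, chr3:8663359-8667256, minus strand) encodes a repressor of the Hey family. L-Alv-like barcodes had 27.6, 47.2, 42.2 and 32.2 CPM, L-Hor-like barcodes 3.88, 2.19, 1.41, 5.25 and 0.820 CPM, and vascular barcodes 81.7, 70.8, 63.4, 58.7 and 32.6 CPM. The L-Alv-like and L-Hor-like ranges did not overlap, while those of L-Alv-like and vascular barcodes did. Thinned shares were 11.8% in L-Alv-like, 0.591% in L-Hor-like and 15.7% in vascular barcodes (28.4%, 2.40% and 31.1% unthinned). At a finer clustering, 32 barcodes of OVX became L-Alv-like, with *Hey1* and *Hes1* each at 86.1 CPM from 20 UMIs.

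*Heyl* (ENSMUSG00000032744, chr4:123233556-123249875, plus strand), a Hey family gene known from mural cells, was sparse, with 23 UMIs in vascular barcodes at 19.5, 6.44, 12.7, 19.6 and 8.89 CPM. No basal-like barcode of any library had a *Heyl* UMI, and 3 counts would have given between 1.99 and 7.51 CPM. Fibroblast-like *Heyl* levels were 3.86, 0.451, 0.563, 3.92 and 0.249 CPM.

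**Figure D1:**
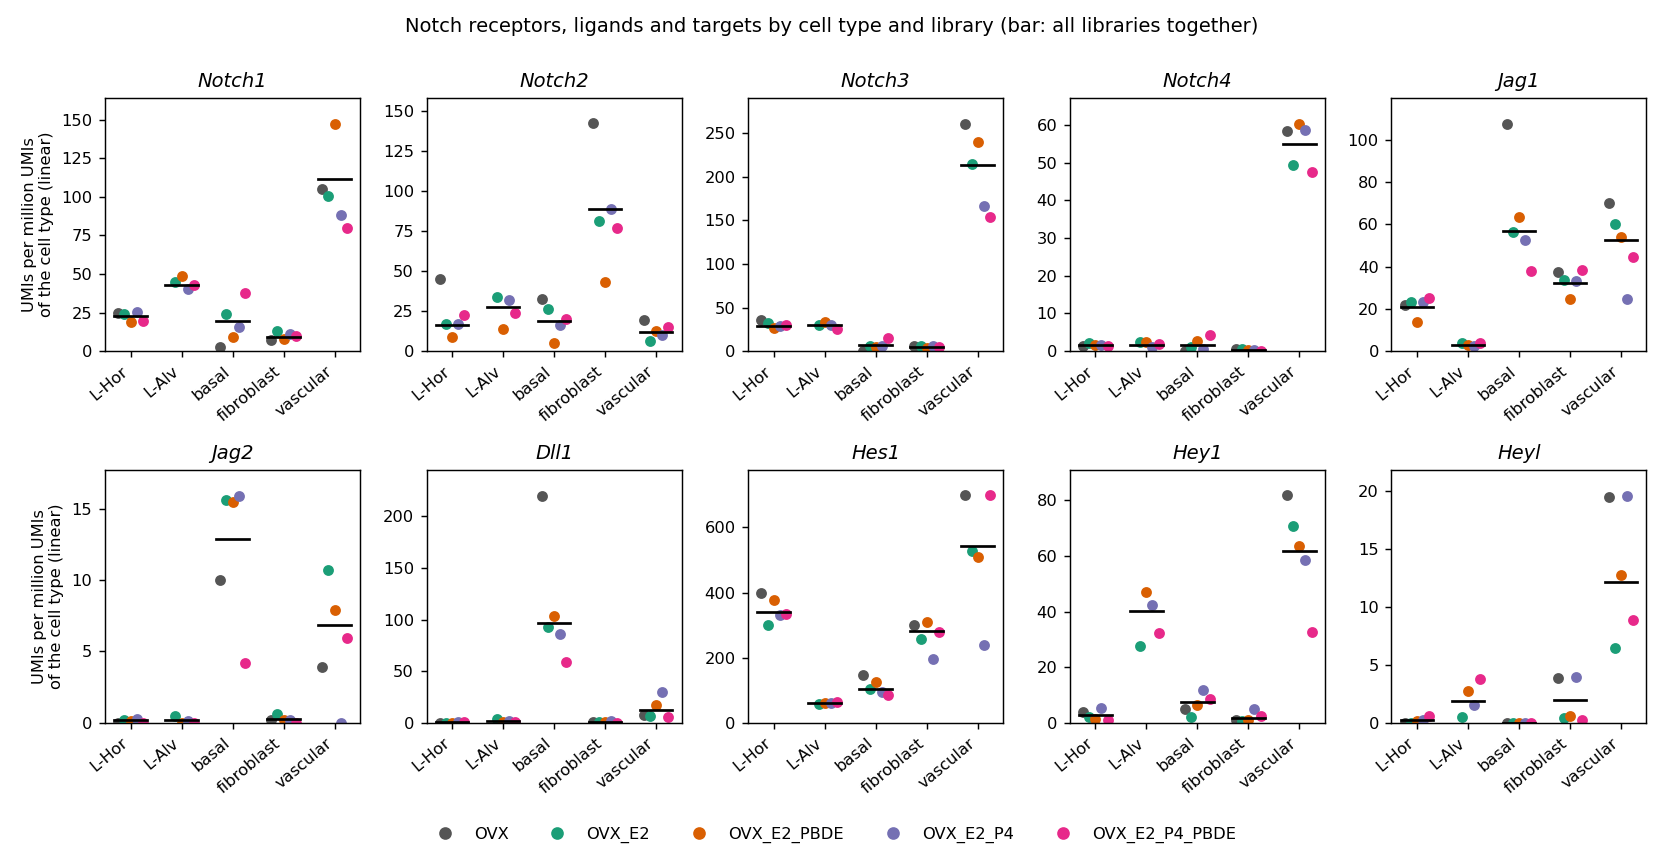
Level of each of the 10 genes (CPM, UMIs of the gene per 1000000 UMIs of the cell type) in each cell type, with 1 point per library. *Dll1* was highest in basal-like barcodes, *Notch4* in vascular barcodes, *Notch2* in fibroblast-like barcodes, and *Hes1* and *Hey1* took opposite sides between the luminal types.

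Differences between cell types were then tested with edgeR's quasi-likelihood test on the summed UMIs, with the library as a block and Benjamini-Hochberg adjustment over all genes. The libraries, which differ in treatment, serve as the replicates. The SE is the log2 difference divided by the square root of the F statistic, and was not estimated directly. It can understate counting error where 1 side has few UMIs. That holds for *Dll1*, with 7 UMIs in L-Hor-like and 18 in L-Alv-like barcodes, and for *Notch4*, with 14 in fibroblast-like barcodes. A member sparse in 1 type passed the count filter only through the other type. Its direction followed from that entry and is no separate support. This applies, among others, to *Dll1* in the basal-like contrasts, *Jag1* in basal-like against L-Alv-like barcodes and *Hey1* in both L-Alv-like contrasts. In the vascular contrast it applies to *Notch4*, *Dll1*, *Hey1* and *Heyl*. The clusters were drawn on the same barcodes, so the adjusted p-values describe the clusters as drawn.

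In L-Alv-like against L-Hor-like barcodes, the receptors *Notch1* and *Notch2* and the target *Hey1* were higher and the ligand *Jag1* and the target *Hes1* lower. *Hey1* was higher by 3.91 ± 0.24 on the log2 scale (SE, n = 4 libraries; edgeR adjusted p = 9.99e-11). *Notch1* was higher by 1.05 ± 0.12 (adjusted p = 7.52e-07) and *Notch2* by 0.82 ± 0.15 (adjusted p = 0.000144). *Jag1* fell by 2.77 ± 0.21 (adjusted p = 1.69e-09) and *Hes1* fell by 2.42 ± 0.08 (adjusted p = 2.89e-14). *Notch3* had a difference of 0.13 ± 0.12 (adjusted p = 0.366). That made 5 of the 6 members tested, where 62.3% of all 10688 genes tested were called, and *Notch4*, *Jag2*, *Dll1* and *Heyl* had too few UMIs to be tested.

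Basal-like barcodes were higher than L-Hor-like ones in both ligands tested, and lower in a receptor and a target. *Dll1* was higher by 8.07 ± 0.37 (n = 5 libraries; edgeR adjusted p = 5.05e-09), a value that rests on 7 UMIs in L-Hor-like barcodes, and *Jag1* by 1.41 ± 0.22 (adjusted p = 0.000168). *Notch3* fell by 2.09 ± 0.30 (adjusted p = 8.28e-05) and *Hes1* fell by 1.70 ± 0.13 (adjusted p = 4.08e-07). *Notch1* and *Notch2* did not pass, at -0.27 ± 0.31 (adjusted p = 0.464) and -0.05 ± 0.20 (adjusted p = 0.851). The 4 calls among 6 members tested stood beside 59.4% of 7824 genes. Without OVX_E2_P4_PBDE, the library with the highest basal-like *Notch1* and the lowest basal markers, the *Notch1* difference was -0.71 and passed (adjusted p = 0.0369).

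Against L-Alv-like barcodes, basal-like ones were higher in *Dll1*, by 5.71 ± 0.27 (n = 4 libraries; edgeR adjusted p = 3.47e-08), in *Jag1*, by 4.05 ± 0.22 (adjusted p = 1.04e-07), and in *Hes1*, by 0.61 ± 0.13 (adjusted p = 0.00256). *Hey1* fell by 2.41 ± 0.26 (adjusted p = 1.73e-05), *Notch3* fell by 2.06 ± 0.28 (adjusted p = 0.000118), *Notch1* fell by 1.21 ± 0.26 (adjusted p = 0.00287) and *Notch2* fell by 0.80 ± 0.21 (adjusted p = 0.00875). All 7 members tested were called, against 43.3% of 7801 genes. The call of *Notch2* was lost without OVX_E2_P4 (-0.62, adjusted p = 0.11), and the *Hes1* difference turned to -0.68 when the mixed luminal barcodes, which carry L-Hor markers, were added to L-Alv-like ones. *Jag2* was below the filter but higher in basal-like than in L-Hor-like barcodes in 5 of 5 libraries and than in L-Alv-like barcodes in 4 of 4.

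Vascular against fibroblast-like barcodes gave calls for 8 of 9 members tested, 7 of them higher, where 50.5% of 9937 genes were called. Of the 7, *Notch4*, *Dll1*, *Hey1* and *Heyl* entered the test only through the vascular sums. *Notch4* was higher by 6.94 ± 0.35 (n = 5 libraries; edgeR adjusted p = 9.88e-15), *Notch3* by 4.90 ± 0.18 (adjusted p = 3.79e-17) and *Notch1* by 3.02 ± 0.20 (adjusted p = 2.88e-12), while *Notch2* fell by 3.11 ± 0.23 (adjusted p = 2.05e-11). *Hey1* was higher by 4.78 ± 0.35 (adjusted p = 1.99e-11), *Dll1* by 3.68 ± 0.48 (adjusted p = 5.52e-07), *Heyl* by 2.72 ± 0.47 (adjusted p = 2.64e-05) and *Hes1* by 0.50 ± 0.12 (adjusted p = 0.00103). *Jag1* had a difference of 0.23 ± 0.19 (adjusted p = 0.346).

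**Figure D2:**
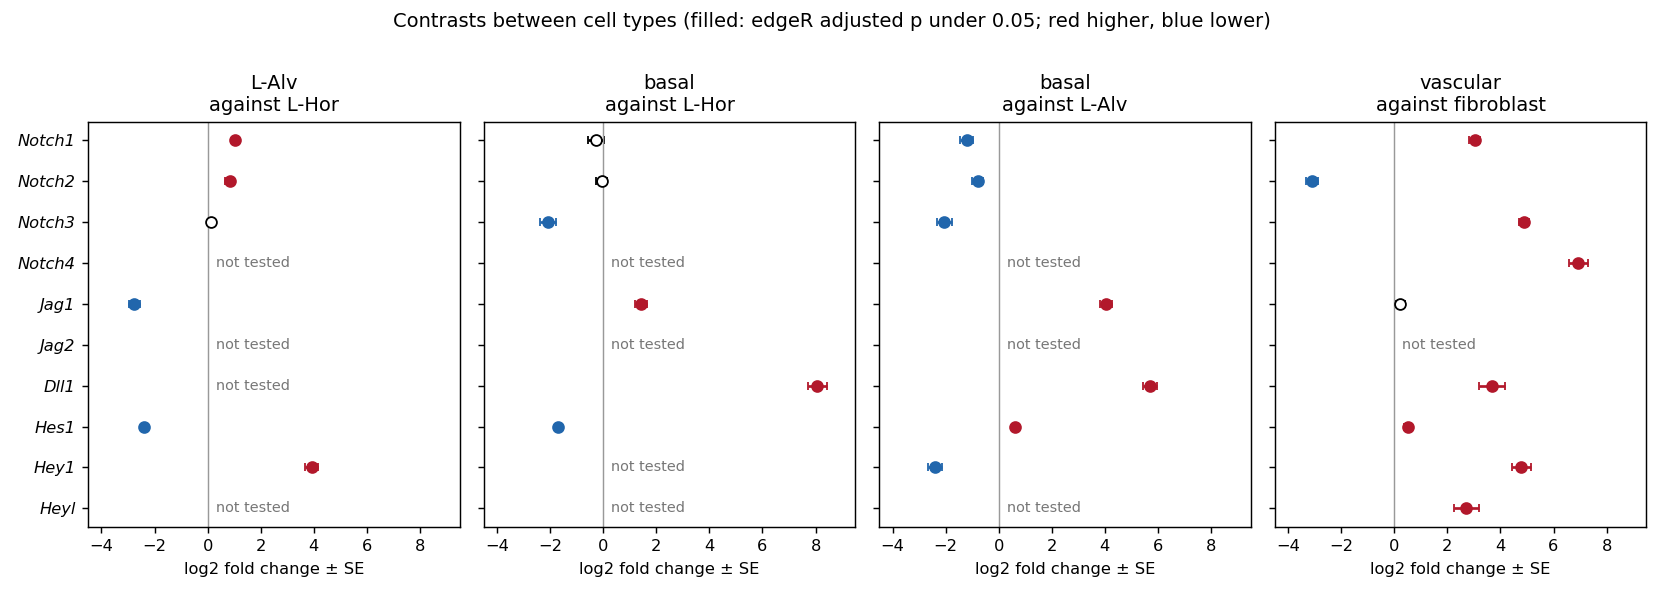
Log2 difference of each member between cell types (edgeR estimate, n = 4 or 5 libraries). Error bars are 1 SE, derived from the F statistic. Filled points mark members called at an adjusted p of 0.05. *Dll1* had the largest difference in both contrasts of basal-like barcodes and *Notch4* that in the vascular contrast.

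The vascular barcodes held markers of both endothelial cells and pericytes, so the members were also given by marker content, with a limit of 5 UMIs chosen after the data were seen. Of the 235 barcodes, 182 had at least 5 UMIs of both marker lists, 48 of the endothelial list alone, 3 of the pericyte list alone and 2 of neither. *Notch3* was 248 CPM in barcodes with both and 42.4 CPM in those with endothelial markers alone. *Heyl* had 20 UMIs (13.0 CPM) in the first and 0 of 330328 UMIs in the second. The Poisson intervals of *Heyl* for counting error, 7.94 to 20.1 CPM and 0 to 11.2 CPM, overlapped. In contrast to *Notch3*, *Notch4* was 56.5 and 51.5 CPM and *Hey1* 63.0 and 60.6 CPM. *Notch1* was 109 and 130 CPM and the ligand *Dll4* 67.6 and 57.5 CPM. Barcodes with both lists had a median of 7586 UMIs and those with endothelial markers alone 6128 UMIs, and 22 barcodes lay within 1 UMI of the limit for pericyte markers. Whether a barcode with both lists held 1 cell or several was not tested.

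**Figure D3:**
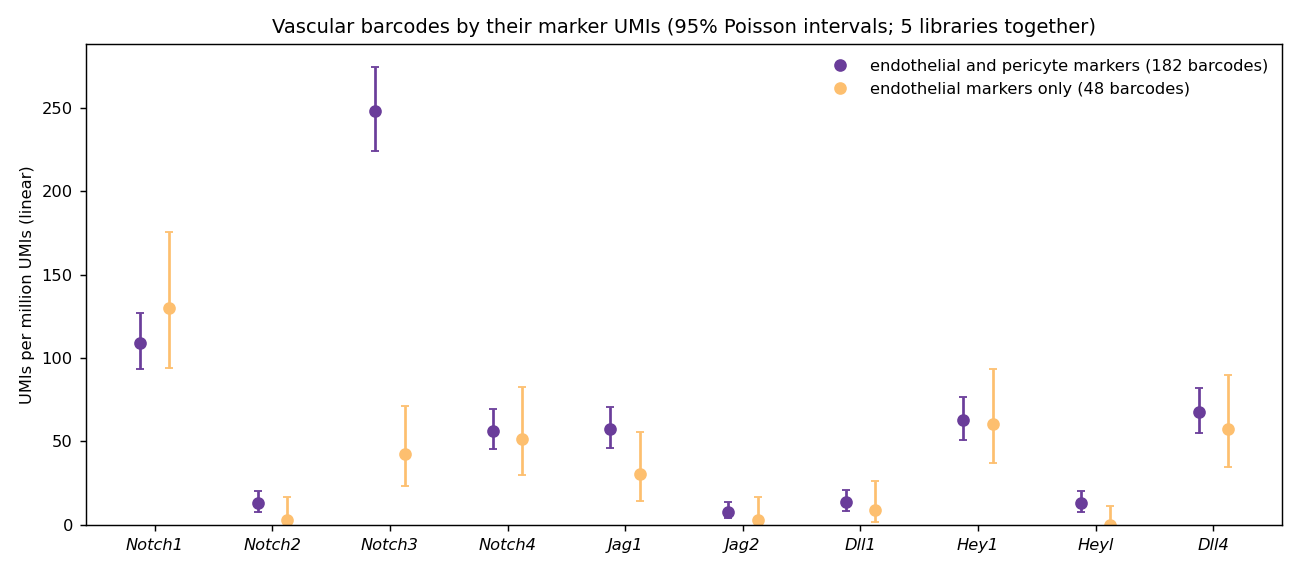
Level (CPM, with 95% Poisson intervals for counting error) of members and of *Dll4* in vascular barcodes that held endothelial and pericyte markers, and in those with endothelial markers alone. *Notch3* was 248 CPM in the first and 42.4 CPM in the second, whereas *Notch4* and *Hey1* were close between them.

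The other 44 pathway genes were followed by role, and those with the most UMIs in each role were the ligands *Dlk1* (421 UMIs over all barcodes) and *Dll4* (165), the glycosylation enzymes *Rfng* (1713) and *Pofut1* (1534), the ligand ubiquitin ligases *Mib1* (3337) and *Mib2* (1232), the γ-secretase subunit *Psenen* (24026) and the protease *Adam10* (10444), the nuclear factors *Rbpj* (6107) and *Snw1* (5596), the turnover genes *Dtx3* (9856) and *Itch* (4379), and the Hes genes *Hes6* (3460) and *Hes7* (122). In L-Alv-like against L-Hor-like barcodes, 9 of 31 tested were higher and 9 lower, where 62.3% of all genes were called. Their median log2 difference was 0.08 and that of all genes 0.00. *Adam10*, which cuts the receptor after ligand binding, fell by 2.18 (edgeR adjusted p = 3.59e-12) and *Hes6* fell by 1.56 (adjusted p = 5.67e-09). By contrast *Rbpj* was higher by 0.80 and *Mib1* by 0.69. The coactivator gene *Maml2* was higher by 2.09 (adjusted p = 3.22e-09) and *Nrarp*, a Notch target that feeds back on the pathway, by 1.92 (adjusted p = 4.48e-07), named after their values were seen.

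In basal-like against L-Hor-like barcodes, 6 of 24 pathway genes tested were higher, *Mib1* by 1.57 and *Rbpj* by 1.23 among them, and 5 were lower, including *Adam10*, which fell by 1.99, and *Hes6*, which fell by 1.70. Of all genes, 59.4% were called in that contrast. In basal-like against L-Alv-like barcodes 5 of 25 were higher and 5 lower, where 43.3% of all genes were called. In vascular against fibroblast-like barcodes 11 of 33 were higher and 6 lower, beside 50.5% of all genes. *Dll4*, the ligand of sprouting endothelium, was higher by 8.43 (edgeR adjusted p = 6.59e-15) and *Dlk1* by 7.48 (adjusted p = 1.06e-15), while *Rbpj* fell by 1.89. Pooled vascular levels were 64.9 CPM for *Dll4* and 182 CPM for *Dlk1*.

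The genes with the most similar pattern were sought over 24 sums, each a cell type in a library, by Pearson's r of log2(CPM + 1) among 9075 genes. The sums share libraries and cell types, so r is a description. *Dll1* was nearest to *Tpm2* (r = 0.963), *Tagln* (0.951) and *Myh11* (0.949), contractile genes of basal cells. *Notch4* was nearest to *Scarb1* (0.975), the endothelial adhesion gene *Pecam1* (0.974) and *Ets1* (0.959). *Notch1* had a member as its nearest, *Notch3* (0.943), then *Ppp1r13b* (0.928) and *Lmcd1* (0.927), and *Notch3* had *Ehd4* (0.959), *Podxl* (0.956) and *Lsm6* (0.955). *Notch2* was nearest to the fibroblast growth factor gene *Fgf10* (0.878), *Srpx* (0.877) and *Cml3* (0.866). *Jag1* was nearest to *H2afy2* (0.945), *Socs3* (0.919) and *Dynll1* (0.919), and *Hes1* to *Slc50a1* (0.928), *Rab5c* (0.921) and *Bmyc* (0.914). *Hey1* was nearest to *Hipk1* (0.956), *Cck* (0.941) and *Piezo1* (0.937), and *Heyl* to *Rapgef2* (0.9) and *Tmcc3* (0.893), whereas *Jag2* had fewer than 100 UMIs and was not ranked. By Spearman's rho 6 of the 27 genes so ranked were among the nearest 3.

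The effect of each treatment was then described within cell types. Each group has 1 library, so a ratio of levels carries only a 95% interval for counting error (exact conditional binomial), and nothing was tested against the variation between animals. A gene was counted when it had at least 50 UMIs over both libraries and differed by at least 1.5-fold. OVX_E2 enters 3 of the 4 comparisons, and OVX_E2_P4 enters a pair of them, so these are not independent. Of 190 ratios of members, 86 had enough UMIs, and 19 passed 1.5-fold, 6 higher and 13 lower. The interval excluded 1 in 18 of the 19. Of all genes with enough UMIs, between 9.17% and 39.1% passed within a single comparison and cell type. By TMM or median-of-ratios scaling in place of CPM, 8 ratios of members were higher and 10 lower. *Jag2* never had enough UMIs.

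**Figure D4:**
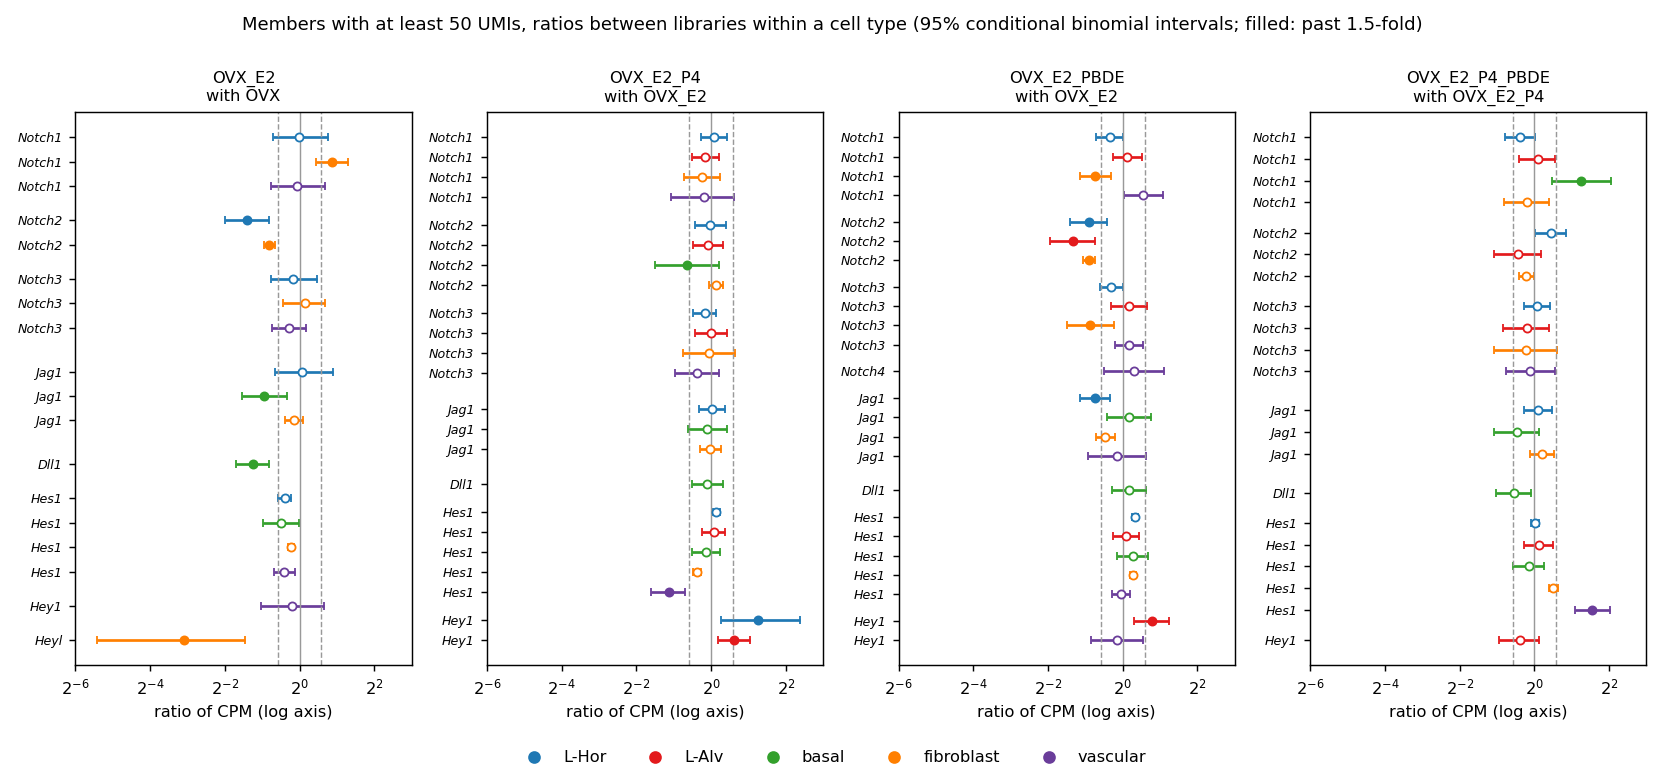
Ratios of the members' levels between libraries (log axis, error bars 95% intervals for counting error) by cell type, for members with at least 50 UMIs over both libraries. Of these 86 ratios by CPM, 6 were higher and 13 lower by at least 1.5-fold. Of all genes with enough UMIs, between 9.17% and 39.1% passed within a single comparison and cell type.

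Some members differed in the same direction across cell types. *Hes1* was lower in OVX_E2 than in OVX in 6 of 6 types, and *Hey1* lower in OVX_E2_P4_PBDE than in OVX_E2_P4 in 8 of 8. How many of all genes kept a direction in this way was not counted. The *Hes1* ratio in L-Hor-like barcodes was 0.759 by CPM and 0.956 by TMM. For *Hey1*, only L-Alv-like barcodes had enough UMIs for a ratio, 0.763 with an interval that included 1 (0.518 to 1.09). *Notch2* was highest in OVX in 6 of the 6 cell types that OVX shares with OVX_E2, and lowest in OVX_E2_PBDE in 7 of 8 types. Its ratio of OVX_E2 to OVX had an interval that included 1 in basal-like (0.39 to 1.70) and vascular barcodes (0.051 to 1.70, from 3 and 5 UMIs). In L-Hor-like barcodes the levels were 45.3, 17.0, 8.99, 16.7 and 22.7 CPM, and in basal-like barcodes 32.6, 26.0, 5.17, 16.6 and 20.0 CPM. Between OVX_E2_P4_PBDE and OVX_E2_P4, *Notch2* was lower in 4 of 8 types, so the lower level with PBDEs beside estradiol alone was not seen as broadly beside both hormones. This difference between the PBDE comparisons was not tested.

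Fibroblast markers, the markers of the type where *Notch2* was highest, were also highest in OVX within some of the other types. They summed to 2570, 1718, 1648, 1106 and 1249 CPM in L-Hor-like barcodes, to 2749, 1316, 828, 1195 and 864 CPM in basal-like barcodes and to 9061, 3093, 5547, 1223 and 3041 CPM in hematopoietic-like barcodes. In fibroblast-like barcodes themselves the sums were 27980, 31510, 23390, 29470 and 20310 CPM, with OVX not the highest. The stress genes summed highest in OVX in L-Hor-like (9748 CPM), basal-like (14200 CPM), fibroblast-like (13440 CPM), hematopoietic-like (7614 CPM) and vascular barcodes (16150 CPM). In OVX_E2_PBDE the fibroblast markers were not the lowest in L-Hor-like or hematopoietic-like barcodes, where *Notch2* was lowest, but they were the lowest in basal-like barcodes. The part of either in the *Notch2* levels was not tested. Levels over whole libraries are not compared, since fibroblast-like barcodes were 2565 of 3107 in OVX and 936 of 2229 in OVX_E2.

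**Figure D5:**
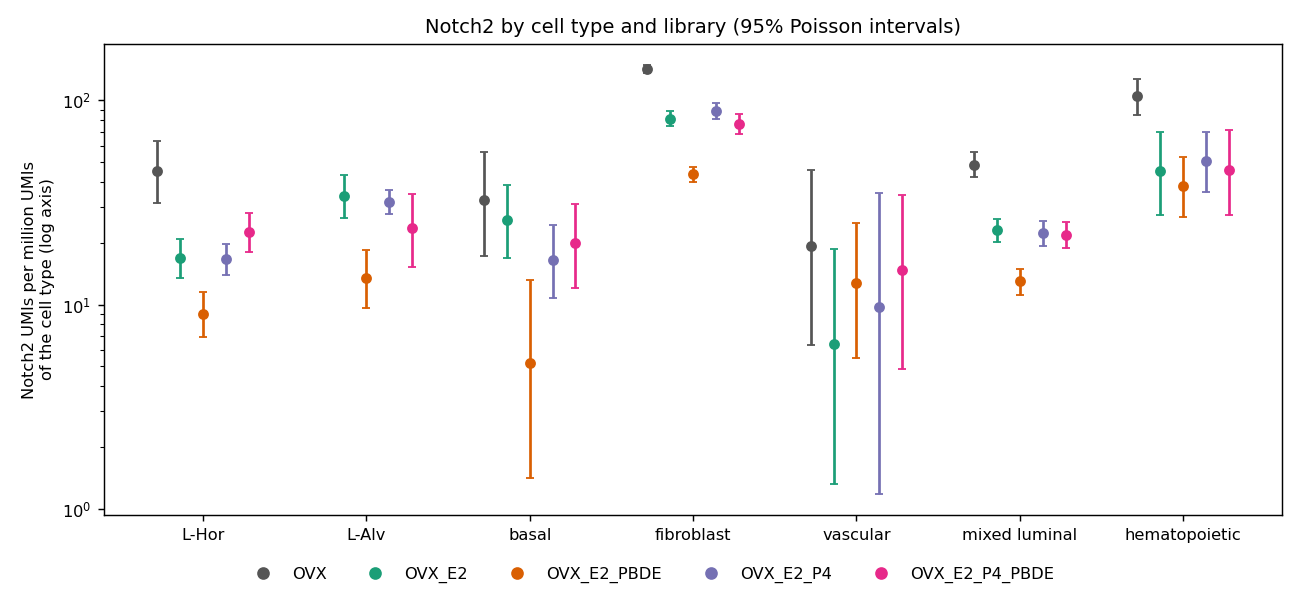
*Notch2* level (CPM, with 95% Poisson intervals for counting error) in each library by cell type. OVX is highest in each type it has, and OVX_E2_PBDE lowest in most, with fibroblast-like values of 142 CPM in OVX and 43.4 CPM in OVX_E2_PBDE.

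With estradiol (OVX_E2 against OVX), the members that passed in the epithelium were lower. In L-Hor-like barcodes *Notch2* had a ratio of 0.374 (0.25 to 0.572), the 1 call among 5 members with enough UMIs, where 30.5% of genes passed. The ratio stayed between 0.329 and 0.4715 in the 8 alternatives that gave a value. Fibroblast markers in these barcodes went from 2570 to 1718 CPM and stress genes from 9748 to 7166 CPM, and their part was not tested. In basal-like barcodes *Dll1* had a ratio of 0.420 (0.309 to 0.571) and *Jag1* one of 0.522 (0.343 to 0.798), 2 of 3 members beside 39.1% of genes. These rest on 59 barcodes of OVX and 72 of OVX_E2. Summed basal markers were 16140 CPM in OVX and 12060 CPM in OVX_E2, and summed dissociation stress genes 14200 and 7111 CPM, and the part of either in the ratios was not tested.

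In fibroblast-like barcodes 3 of 6 members passed with estradiol, beside 13.5% of genes. *Notch2* had a ratio of 0.572 (0.519 to 0.629), *Notch1* one of 1.82 (1.35 to 2.45) and *Heyl* one of 0.117 (0.0234 to 0.361). *Heyl* had 53, 3, 8, 22 and 1 UMIs in the fibroblast-like barcodes of the 5 libraries, so OVX and OVX_E2_P4 were high and the rest low. In OVX 53 of the 53 UMIs lay in barcodes with fewer than 5 pericyte-marker UMIs, 45 of 2553 such barcodes, and in OVX_E2_P4 21 of the 22, in 18 of 929 barcodes. The other class held only 12 barcodes in OVX (95% interval of its *Heyl* level up to 44.8 CPM) and 19 in OVX_E2_P4, so nearly all UMIs fall in the large class at any like level. Stress genes summed to 13440 CPM in OVX and 10310 CPM in OVX_E2, and their part was not tested. In vascular barcodes 0 of 4 members passed, where 15.6% of genes did. By TMM scaling in place of CPM, the share of passing genes that were higher with estradiol went from 22.4% to 65.3% in L-Hor-like, from 44.3% to 59.2% in basal-like, from 60.6% to 47.0% in fibroblast-like and from 44.6% to 68.4% in vascular barcodes.

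Of the other pathway genes, 7 of 22 passed with estradiol in L-Hor-like barcodes, a share near the 30.5% of all genes, and 6 of these were lower by CPM. Among them were the cleavage genes *Adam17* (0.616), *Psen2* (0.599) and *Ncstn* (0.639), and the nuclear factors *Snw1* (0.588) and *Spen* (0.431), while *Aph1c* was higher (1.70). The median log2 ratio of all genes there was -0.24, which is the largest shift of any comparison, and by TMM it was 0.10. By TMM 5 of the 22 were higher and 2 lower: *Adam17* (0.777), *Psen2* (0.755), *Ncstn* (0.806) and *Snw1* (0.741) no longer passed, while *Spen* (0.544) and *Aph1c* (2.14) did. In basal-like barcodes *Rbpj* (0.415), *Snw1* (0.632) and *Dtx3* (0.628) passed of 6, where 39.1% of all genes did. In fibroblast-like barcodes 2 of 29 passed, *Hes6* (1.53) among them, where 13.5% of all genes did. Of these *Snw1* (0.699), *Dtx3* (0.695) and *Hes6* (1.445) did not pass by TMM.

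With progesterone added to estradiol (OVX_E2_P4 against OVX_E2), *Hey1* passed as higher in both luminal types and *Hes1* as lower in vascular barcodes. L-Alv-like barcodes, where *Hey1* was high, numbered 145 in OVX_E2 and 578 in OVX_E2_P4. The part of their RNA in the *Hey1* levels of other types was not tested. Outside the luminal types *Hey1* had too few UMIs to be counted, and its ratios went both ways. Its ratio was 5.74 (1.375 to 51.0) in basal-like barcodes, from 18 and 2 UMIs. In fibroblast-like barcodes it was 6.39 (2.43 to 21.3), from 27 and 5 UMIs. In vascular barcodes it was 0.829 (0.390 to 1.65), from 12 and 33 UMIs. *Hey1* had a ratio of 2.39 (1.2 to 5.18) in L-Hor-like barcodes, 1 of 6 members where 9.98% of genes passed, and of 1.53 (1.14 to 2.08) in L-Alv-like barcodes, 1 of 5 where 11.9% passed. Neither held throughout: with the mixed luminal barcodes added the first was 1.18, and with all libraries clustered together the second was 1.49. The L-Hor-like call rests on 39 UMIs in OVX_E2_P4 and 11 in OVX_E2. L-Alv markers within L-Hor-like barcodes summed to 28.5, 44.3, 69.6, 190.5 and 82.2 CPM, highest in OVX_E2_P4, where *Hey1* was also highest. Within L-Alv-like barcodes they summed to 3678 CPM in OVX_E2 and 5591 CPM in OVX_E2_P4. The part of these markers in the *Hey1* ratios was not tested. In basal-like barcodes *Notch2* had a ratio of 0.638 (0.352 to 1.16), an interval that includes 1, as 1 of 4 members beside 15.5% of genes. In fibroblast-like barcodes 0 of 5 members passed, where 9.17% of genes did. By TMM the share of passing genes that were higher went from 44.8% to 65.05% in L-Hor-like, from 38.7% to 70.1% in L-Alv-like and from 34.85% to 58.0% in basal-like barcodes. It went from 46.0% to 51.3% in fibroblast-like and from 26.0% to 21.7% in vascular barcodes.

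*Hes1* in vascular barcodes had a ratio of 0.454 (0.327 to 0.619) with progesterone, 1 of 3 members beside 18.8% of genes. The value rests on 49 UMIs in 28 barcodes of OVX_E2_P4. Only 1 of these 28 was left without the 20% of barcodes with the highest doublet scores, so neither this ratio nor that of OVX_E2_P4_PBDE against OVX_E2_P4 could be had there. These 28 barcodes also had the highest L-Hor marker sum of the vascular barcodes, 1203 CPM, where the lowest library had 85.6 CPM. Stress genes in vascular barcodes summed to 16150, 14140, 11820, 8878 and 14340 CPM, and were lowest in the library where *Hes1* was lowest. The part of either was not tested.

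Among the pathway genes with progesterone, *Rfng*, which extends sugars on Notch receptors, was lower in L-Hor-like (0.647, 1 of 31) and L-Alv-like barcodes (0.600, 1 of 24). *Rbpj* passed in basal-like barcodes (1.58, 1 of 12), *Pofut1* (1.56), *Mib2* (0.599) and *Dtx2* (0.620) in fibroblast-like barcodes (3 of 28), and *Dtx3* (0.651, 1 of 4) in vascular ones. Of all genes, 9.98% passed in L-Hor-like, 11.9% in L-Alv-like, 15.5% in basal-like, 9.17% in fibroblast-like and 18.8% in vascular barcodes. Outside the vascular barcodes the pathway counts were near or below these shares. The 4 pathway genes in vascular barcodes are too few to set against a share. By TMM *Rfng* was 0.693 in L-Hor-like barcodes, which does not pass, and 0.660 in L-Alv-like barcodes.

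With PBDEs added to estradiol (OVX_E2_PBDE against OVX_E2), *Notch2* was lower in 3 types and *Hey1* higher in L-Alv-like barcodes. In L-Hor-like barcodes *Notch2* had a ratio of 0.531 (0.378 to 0.743) and *Jag1* one of 0.602 (0.455 to 0.793), 2 of 5 members where 10.2% of genes passed. In L-Alv-like barcodes *Notch2* had a ratio of 0.397 (0.261 to 0.597) and *Hey1* one of 1.71 (1.24 to 2.38), 2 of 5 beside 11.7%. L-Alv markers there summed to 3678 CPM in OVX_E2 and 4704 CPM in OVX_E2_PBDE, and their part was not tested. In basal-like barcodes 0 of 3 members passed (15.0% of genes), and in vascular barcodes 0 of 6 (15.3%). By TMM the share of passing genes that were higher went from 20.97% to 52.5% in L-Hor-like, from 24.9% to 61.1% in L-Alv-like, from 24.6% to 41.9% in basal-like, from 13.2% to 49.4% in fibroblast-like and from 46.8% to 61.7% in vascular barcodes.

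Fibroblast-like barcodes had 3 of 5 members lower with PBDEs beside estradiol, where 9.42% of genes passed. *Notch2* had a ratio of 0.535 (0.475 to 0.601), *Notch1* one of 0.601 (0.451 to 0.803) and *Notch3* one of 0.546 (0.354 to 0.845). The median log2 ratio of the members tested was -0.74 and of all genes -0.17. The *Notch1* ratio was 0.686 under both other scalings and the *Notch3* ratio 0.71 without the barcodes of highest doublet score, so these 2 lost the 1.5-fold call. Stress genes summed to 7052 CPM in OVX_E2_PBDE and 10310 CPM in OVX_E2, and their part was not tested.

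Of the pathway genes with PBDEs beside estradiol, *Maml1* (0.547), *Nrarp* (0.568) and *Dtx4* (0.546) were lower in L-Hor-like barcodes (3 of 30) and *Adam10* (0.638) in L-Alv-like ones (1 of 18). *Fbxw7* (0.612) was lower in fibroblast-like barcodes (1 of 29). In vascular barcodes *Dll4* was higher (2.22) and *Snw1* lower (0.657), as 2 of 10. Of all genes, 10.2% passed in L-Hor-like, 11.7% in L-Alv-like, 9.42% in fibroblast-like and 15.3% in vascular barcodes. Outside the vascular barcodes the pathway counts were near or below these shares. The 10 pathway genes in vascular barcodes are too few to set against a share. By TMM *Adam10* (0.721), *Fbxw7* (0.699) and *Snw1* (0.693) did not pass.

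With PBDEs added to both hormones (OVX_E2_P4_PBDE against OVX_E2_P4), 2 members passed. *Hes1* in vascular barcodes had a ratio of 2.92 (2.14 to 4.05), 1 of 2 members where 15.8% of genes passed, against the same 28 barcodes of OVX_E2_P4. *Notch1* in basal-like barcodes had a ratio of 2.38 (1.38 to 4.17), 1 of 4 where 24.3% passed. Basal markers there summed to 6432 CPM in OVX_E2_P4_PBDE and 11760 CPM in OVX_E2_P4, L-Hor markers to 1144 and 377 CPM and L-Alv markers to 831 and 250 CPM, and their part was not tested. In L-Hor-like, L-Alv-like and fibroblast-like barcodes 0 of 5 members passed in each, where 13.1%, 19.0% and 12.2% of genes did. By TMM the share of passing genes that were higher went from 23.2% to 34.0% in L-Hor-like, from 21.7% to 35.1% in fibroblast-like and from 60.7% to 78.7% in vascular barcodes.

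The pathway genes that passed with PBDEs beside both hormones were *Poglut1* (0.605), *Maml1* (0.638), *Maml3* (0.664) and *Nrarp* (0.508) in L-Hor-like barcodes (4 of 30). In L-Alv-like barcodes 5 of 24 passed, among them *Ncstn* (1.51), *Nrarp* (1.76), *Maml3* (0.600) and *Dtx2* (0.386). *Aph1a* (0.574) and *Fbxw7* (1.59) passed in basal-like barcodes (2 of 13) and *Dlk1* (0.540) in vascular ones (1 of 4), with 0 of 28 in fibroblast-like barcodes. Of all genes, 13.1% passed in L-Hor-like, 19.0% in L-Alv-like, 24.3% in basal-like, 15.8% in vascular and 12.2% in fibroblast-like barcodes. Both luminal counts were near these shares. By TMM *Maml1* (0.67) and *Maml3* (0.696) did not pass in L-Hor-like barcodes, nor *Ncstn* (1.497) in L-Alv-like ones.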

How the data were processed

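The authors aligned reads to mm10 and made UMI counts with Cell Ranger 2.0.0, and deposited them without normalization as whole-number counts per gene and barcode. Barcodes needed 500 genes, 1000 UMIs and at most 10% mitochondrial UMIs. Each library was clustered alone in Seurat 5.3.0 (2000 variable genes without Notch pathway genes, 10 principal components, resolution 0.3 for OVX and 0.5 for the rest) and clusters were named from marker lists. No doublet was removed, except in an alternative that drops the 20% of barcodes with the highest Scrublet scores (scanpy 1.11.5). UMIs were summed by type and library. Types were compared with edgeR 4.0.16 (TMM, filterByExpr, library block, 0.05 after Benjamini-Hochberg), with DESeq2 1.42.0 as an alternative, and groups by ratios with exact intervals (scipy 1.17.1). Types with fewer than 20 barcodes in a library were not used. Both procedures were tested on simulated data. Intervals cover counting error only. The named genes were the 10 members, the 2 pathway genes with the most UMIs per role, those that passed between groups and the 3 nearest genes by pattern, of which 3 genes are not reported here. The members and lists were chosen with earlier results of these data known. Positions are from GENCODE on mm10 and promoters from RefSeq.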

Additional observations from a re-analysis of the deposited data

Results flagged for a closer look

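Some members had ratios in opposite directions between cell types or between comparisons, with counting intervals that exclude 1, and with 1 library per group these differences were not tested. With progesterone added to estradiol (OVX_E2_P4 against OVX_E2), *Hes1* had a ratio of 1.10 in L-Hor-like barcodes, 0.769 in fibroblast-like ones and 0.454 in vascular ones. With PBDEs added to estradiol (OVX_E2_PBDE against OVX_E2), *Notch1* had a ratio of 0.601 in fibroblast-like and 1.46 in vascular barcodes. With PBDEs added to both hormones (OVX_E2_P4_PBDE against OVX_E2_P4), *Notch2* had ratios of 1.36 (L-Hor-like) and 0.863 (fibroblast-like). In L-Hor-like barcodes, the ratio of *Notch2* with PBDEs was 0.531 beside estradiol and 1.36 beside both hormones.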

How the results depend on the processing

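No paired analysis between groups was possible because each group has 1 library. The contrasts between cell types kept the call and the direction in 393 of 404 values of single genes. Without the replicate block, the *Notch2* difference between basal-like and L-Hor-like barcodes was 0.017, and the *Notch2* difference between basal-like and L-Alv-like barcodes was -0.72 and did not pass (edgeR adjusted p = 0.0999). The first ran from -0.252 to 0.027 as each library was left out in turn, positive without OVX_E2_PBDE, and was also positive with a mitochondrial limit of 5% (0.027), as was that of *Notch1* with the same limit (0.080), and *Hes1* in basal-like against L-Alv-like barcodes was -0.68 with the mixed luminal barcodes added. The second also did not pass with DESeq2 (-0.81, adjusted p = 0.0571), without OVX_E2_P4 (-0.62, adjusted p = 0.11) or with the mixed luminal barcodes added (-0.46, adjusted p = 0.0731). *Notch1* in basal-like against L-Hor-like barcodes passed with them added (-1.0, adjusted p = 0.0151). Adding them raised the members called in basal-like against L-Hor-like barcodes from 4 to 7.

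The number of members past the fold, summed over cell types, depended on limits. For OVX_E2 against OVX it was 6, and 10 with libraries clustered together or with mixed luminal barcodes added, which give a further cell type. For OVX_E2_P4 against OVX_E2 it was 4, and 1 with the 5% limit or libraries clustered together, and 2 with all genes as variable genes or without the highest Scrublet scores. For OVX_E2_P4_PBDE against OVX_E2_P4 it was 2, and 1 with libraries clustered together and 0 without the highest Scrublet scores. The 5% limit and the Scrublet alternative leave too few vascular barcodes in OVX_E2_P4. With a minimum of 1 UMI the counts became 19, 24, 22 (from 7, for OVX_E2_PBDE against OVX_E2) and 24, and with 20 UMIs 10 and 9 in the comparisons of OVX_E2_P4 with OVX_E2 and of OVX_E2_P4_PBDE with OVX_E2_P4. At 2-fold they were 3, 2 and 1 in the first 3. By Spearman's rho 6 of 27 nearest genes stayed.

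Of the 19 ratios past 1.5-fold, 12 passed in every alternative that gave a value, though some alternatives left the barcodes of a type unchanged. For *Notch1* in basal-like barcodes with PBDEs beside both hormones, 5 alternatives gave a value. All of them kept the same 148 and 64 barcodes, so at most the scaling changed. The alternatives that changed these barcodes gave no value. For *Hes1* in vascular barcodes, the values rest on 28 or 29 barcodes of OVX_E2_P4. TMM gave 0.688 for *Notch2* in basal-like barcodes with progesterone and 0.676 for *Jag1* in L-Hor-like barcodes with PBDEs beside estradiol, and median-of-ratios 0.682 and 0.676. The latter was 0.725 and *Hey1* in L-Alv-like barcodes 1.40 with the mixed luminal barcodes added. TMM brought *Notch1* in vascular barcodes with PBDEs (1.54) and *Hes1* in fibroblast-like barcodes of OVX_E2_P4_PBDE (1.51) past the limit. Median log2 ratios of all genes ran from -0.24 to 0.04 by CPM and from -0.10 to 0.11 by TMM. *Jag1* was highest in vascular in place of basal-like barcodes at the 5% limit (57.6 against 45.9 CPM) and with all genes as variable genes (52.8 against 51.1 CPM).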
